A study of Mus musculus with 12 samples.

Results

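Deoxycholic acid (DCA) was compared with cholic acid (CA) in mouse small-intestinal organoids, which are epithelial cultures grown from intestinal stem cells. The libraries were chosen by their group labels, which gave 3 DCA and 3 CA libraries, 6 of the 12 in the series, and every gene row of those libraries entered. The remaining libraries were 3 treated with chenodeoxycholic acid (CDCA) and 3 with the solvent dimethyl sulfoxide (DMSO). The DMSO libraries serve here as a reference level, and they and the CDCA libraries also enter the estimate of the spread. All organoids were wild type, are labelled as duodenum and grew in a commercial growth medium. For both acids the labels give the same dose, 50 mmol/L, an amount so high for a bile acid that its unit is in doubt. The duration is given as 2 days in one field and as 96 hours in the protocol, after 2 days of culture. No label gives the age or sex of the animals or says if each library was a culture of its own, so a p-value here measures only the spread between these libraries, which may be technical.

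CA is a primary bile acid, made from cholesterol in the liver. DCA is a secondary bile acid: gut bacteria make it from CA by removing a hydroxyl group from the second ring of the steroid, so the pair differ by that group and DCA is the more hydrophobic. Bile acids are taken up by enterocytes, bind the nuclear receptor FXR (Nr1h4) with its partner RXR, and so switch on genes for binding, export and feedback control of bile acids. Some bile acids also act on the vitamin D receptor (Vdr), on the xenobiotic receptors PXR (Nr1i2) and CAR (Nr1i3), and on the membrane receptor Gpbar1. The comparison asks how far the transcriptome differs when that 1 hydroxyl group is absent.

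Expression is given in TPM, the share of a gene in all transcripts of a library after correction for transcript length. Differences are DCA minus CA on the log2(TPM + 1) scale, which understates differences of weakly expressed genes. TPM keeps no read depth, so no counting interval can be given. Epithelial genes were abundant: the cell adhesion gene Epcam was at 718 to 741 TPM in DCA and 751 to 774 TPM in CA, and the intestinal transcription factor Cdx2 at 98.6 to 101 and 105 to 119.6 TPM. The proximal gut factors Pdx1 and Gata4 stood at 8.16 to 10.5 and 84.9 to 105 TPM over these 6 libraries. Of 14 mesenchymal, 14 immune and 14 endothelial, glial and neuronal markers, 1, 2 and 3 were abundant enough to test, and their summed levels were at most 5.85, 5.62 and 6.77 TPM in any DCA or CA library. Mitochondrially encoded genes took 11.8% ± 0.814 of TPM in DCA and 14.0% ± 0.389 in CA (SD, n = 3 each), with 17.2% ± 2.74 in DMSO. Every DCA library was below every CA library in this share (exact two-sided permutation test, p = 0.1, the smallest that 3 against 3 allows). The part of this difference in single results was not tested beyond a fit without those rows, given with the counts.

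In all, 692 genes were higher and 1069 lower in DCA than in CA, of 11952 genes that reached 1 TPM in 3 or more libraries (limma, Benjamini-Hochberg adjusted p under 0.05). That is 14.7% of the genes tested, 5.79% higher and 8.94% lower. Most differences were small: 72 genes were higher and 86 lower by 1 log2 unit or more, and the 5th and 95th percentiles of all differences were -0.61 and 0.49 log2 units, with a median of -0.05. The 3 DCA and 3 CA libraries did not overlap in 5456 genes, 45.6% of those tested, and in 1755 of the 1761 called. For 6509 genes, 54.5%, the 95% interval of the difference lay within 0.5 log2 units of 0. The split between directions depends on scaling. Median-ratio scaling gave 1236 higher and 1290 lower (48.9% of calls higher, against 39.3%), and removal of the mitochondrial and rRNA rows gave 654 and 2059 (24.1% higher). No gene called in both fits changed direction. Among the called genes, 15 of the higher passed the filter of 1 TPM only through the DCA libraries and 5 of the lower only through the CA libraries. Single libraries weigh on the counts: leaving out CA library 2, DCA library 1 or DCA library 2 lowered the calls to 593, 591 and 572, and leaving out DMSO library 1 or CDCA library 3, which enter only the spread, raised them to 2196 and 2247. With no filter on low values 76 genes were called, and 66 of them were among the 1761, in the same direction. Of the 105 called genes named here, 18 were among those 76. The 105 include Cyp24a1, Pdk4 and Notum, whose tests are not given below. From here on libraries are named by group and number, as in CA 2, and a call that held is one that passed in each of the 6 fits with 1 CA or DCA library left out.

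**Figure D1:**
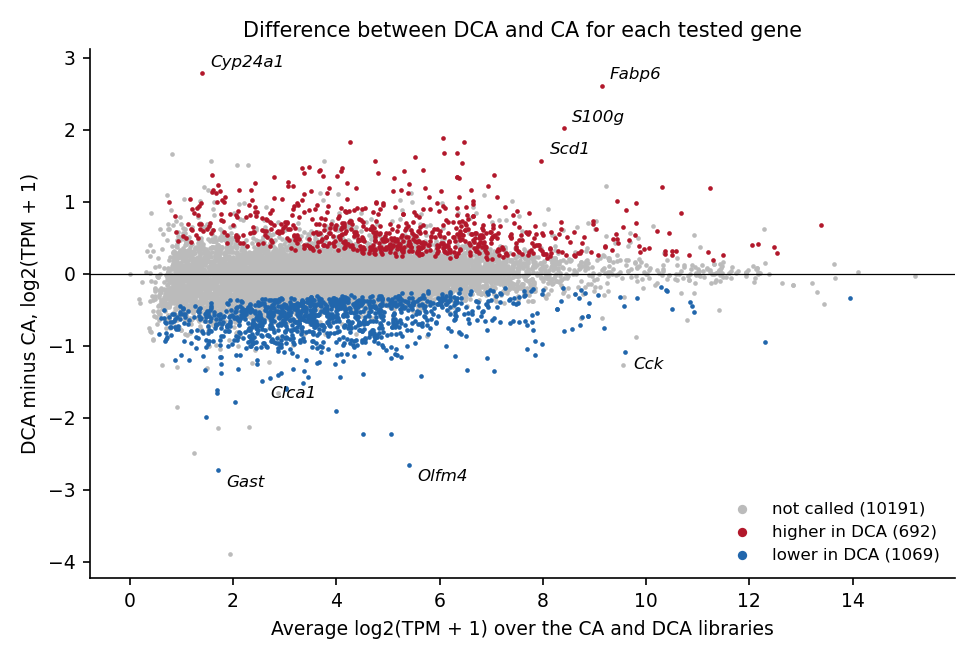
Difference between DCA and CA for each of the 11952 tested genes (y axis, log2 units) against its average log2(TPM + 1) over the 6 libraries (x axis). Red points are the 692 genes called higher and blue points the 1069 called lower in DCA, with grey points not called, and the bile acid binding gene Fabp6 stands at 2.61 and the stem cell gene Olfm4 at -2.65.

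Genes that bind, export and report bile acids were higher in DCA than in CA in 7 of 16 tested, and lower in 1. The list's median difference was 0.45 log2 units against -0.05 over all genes. Fabp6, the ileal protein that carries bile acids across the enterocyte, was at 1481, 1653 and 1100.0 TPM in DCA, 306, 138 and 276 TPM in CA and 1.29, 2.31 and 0.971 TPM in DMSO. Every DCA library lay above every CA library, and all 6 lay far above DMSO. The difference was 2.61 log2 units (95% interval 1.38 to 3.85, adjusted p = 0.0165). The RefSeq promoter window of Fabp6 is printed because it was the single one among the called genes of this list with a match to the inverted repeat that FXR and RXR are known to bind. The motif searched was AGGTCA followed after 1 base by its reverse complement, with up to 2 mismatches allowed. The window runs from 250 bases before to 50 after the gene start, at chr11:43601513-43601812 on the minus strand of GRCm38.p6, and it holds 2 matches of 13 bases, each with 2 mismatches. They begin 222 and 142 bases before the start and are in capitals.
Fabp6: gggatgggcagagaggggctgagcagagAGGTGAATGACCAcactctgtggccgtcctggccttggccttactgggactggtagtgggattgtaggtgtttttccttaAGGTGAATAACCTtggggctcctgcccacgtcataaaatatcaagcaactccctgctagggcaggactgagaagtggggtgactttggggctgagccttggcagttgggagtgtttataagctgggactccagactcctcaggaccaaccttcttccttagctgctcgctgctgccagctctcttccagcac
Of the 8 called members, 6 had a window in that table. A match was found in 374 of all 32851 windows (1.14%), both strands being covered because the motif is its own reverse complement. The matches are a description of these letters, and no binding was measured.

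The basolateral exporter of bile acids is a pair of proteins encoded by Slc51a and Slc51b. Slc51b was at 149, 155 and 127 TPM in DCA, 49.1, 31.8 and 55.7 TPM in CA and 4.11, 3.13 and 2.06 TPM in DMSO, and the DCA and CA libraries did not overlap. Its difference was 1.67 log2 units (0.90 to 2.44, adjusted p = 0.0125). Its partner Slc51a was at 57.9, 56.4 and 44 TPM in DCA, 31, 18.6 and 28 TPM in CA and 4.64, 2.09 and 1.71 TPM in DMSO, also without overlap, but the difference of 1.02 log2 units (0.04 to 2.01, adjusted p = 0.148) did not pass the threshold. It passed in a fit of only the 6 DCA and CA libraries (adjusted p = 0.0072) and without CDCA 3 (adjusted p = 0.0304). Fgf15, the hormone by which the gut represses bile acid synthesis in the liver, was at 27.1, 24.7 and 29.9 TPM in DCA, 9.61, 7.41 and 11.9 TPM in CA and 1.88, 1.93 and 1.72 TPM in DMSO. It was higher in DCA by 1.43 log2 units (0.84 to 2.02, adjusted p = 0.00701). Akr1b7, an aldo-keto reductase, was at 37.1, 40.3 and 28.8 TPM in DCA, 11.7, 6.44 and 10.1 TPM in CA and 2.63, 2.01 and 1.55 TPM in DMSO. The difference was 1.82 log2 units (1.13 to 2.51, adjusted p = 0.00546), with no overlap. Among the efflux pumps, Abcc2, the apical export pump for conjugates, differed by 0.80 log2 units (0.50 to 1.09, adjusted p = 0.00489), though its row has the same values as another row and the assignment is uncertain, and Abcc3, a basolateral pump, by 0.42 log2 units (0.17 to 0.67, adjusted p = 0.0329). Vldlr, a lipoprotein receptor of the same list, was higher by 0.33 log2 units (0.17 to 0.49, adjusted p = 0.0141). Abcc4, another basolateral pump, was the 1 member lower in DCA, at 1.23, 1.5 and 1.07 TPM against 3.3, 3.04 and 2.53 TPM in CA. Abcc4 differed by -0.80 log2 units (-1.29 to -0.31, adjusted p = 0.0336). The repressor Nr0b2, a standard FXR target, was at 4.06, 3.83 and 3.56 TPM in DCA and 3.46, 1.53 and 2.64 TPM in CA and did not pass (0.48 log2 units, 0.03 to 0.93, adjusted p = 0.136). The apical importer Slc10a2 was below the filter. The calls of Fgf15, Akr1b7 and Abcc2 held. Those lost were Fabp6 without CA 2, DCA 1 or DCA 2 (adjusted p up to 0.0689), Slc51b without CA 2, DCA 1 or DCA 2 (adjusted p up to 0.0552), Vldlr without CA 3, DCA 1 or DCA 2 (adjusted p up to 0.0738), Abcc3 without CA 2, CA 3, DCA 1 or DCA 2 (adjusted p up to 0.138) and Abcc4 without any 1 of the 6 (adjusted p up to 0.105). The list's members called higher numbered 7, 4 and 5 without CA 1, 2 or 3 and 3, 3 and 7 without DCA 1, 2 or 3, and those called lower 0 without any 1 of the 6 libraries.

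**Figure D2:**
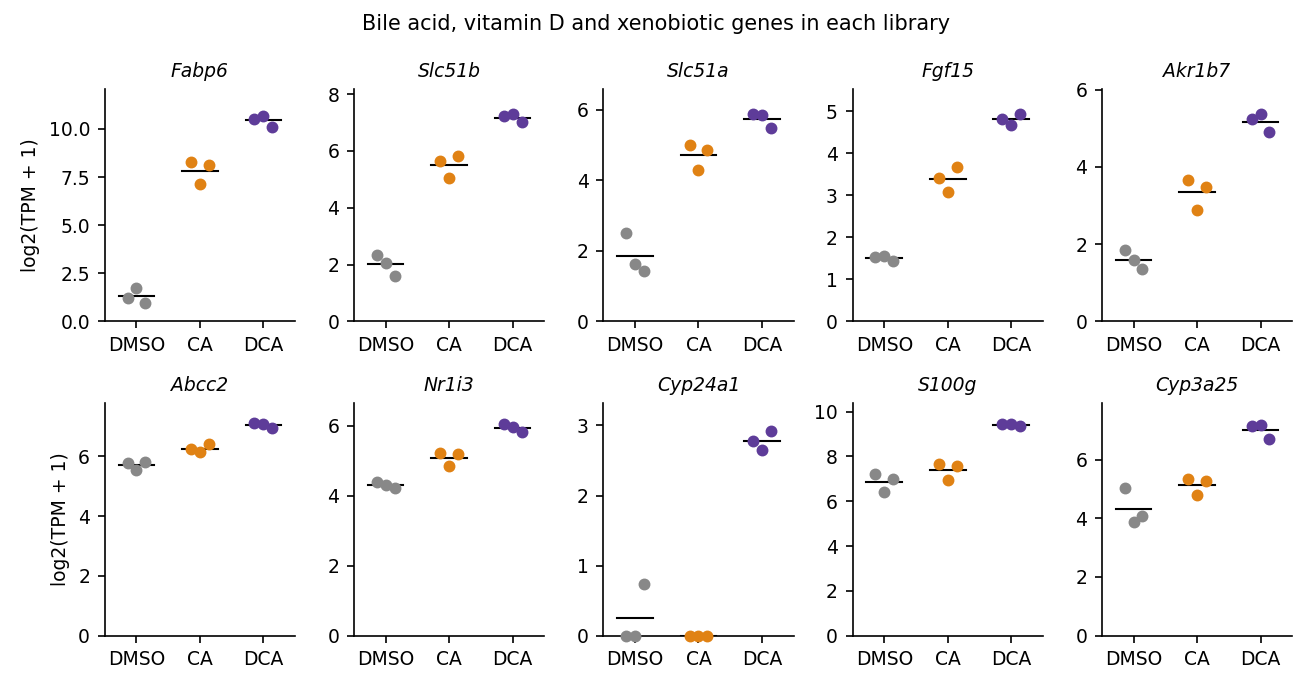
Levels of 10 genes in each DMSO, CA and DCA library (y axis, log2(TPM + 1), points are libraries and bars the mean of 3). In all 10 panels the 3 DCA libraries lie above the 3 CA libraries, and Cyp24a1 is listed at 0 in every CA library.

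The receptors themselves were called at about the share of all genes, which was 14.7%. Of 13 tested bile acid and xenobiotic receptor genes 2 were called, both higher in DCA, with a list median of 0.22 log2 units. CAR (Nr1i3), a sensor of foreign compounds, was at 65.5, 60.9 and 55.8 TPM in DCA, 36.3, 27.6 and 35.6 TPM in CA and 20.1, 18.9 and 17.4 TPM in DMSO. Nr1i3 differed by 0.86 log2 units (0.43 to 1.29, adjusted p = 0.0151). PXR (Nr1i2) differed by 0.36 log2 units (0.14 to 0.58, adjusted p = 0.035). Both calls were lost with single libraries left out, Nr1i3 without CA 2, DCA 1 or DCA 2 (adjusted p up to 0.0699) and Nr1i2 without CA 2, CA 3, DCA 1, DCA 2 or DCA 3 (adjusted p up to 0.142), and the list's members called higher numbered 4, 0 and 1 without CA 1, 2 or 3 and 0, 1 and 1 without DCA 1, 2 or 3, and 4 under median-ratio scaling. FXR (Nr1h4) was at 35.4, 38.5 and 34.5 TPM in DCA and 30.8, 23.1 and 29.6 TPM in CA, with no overlap but no call (0.37 log2 units, -0.10 to 0.84, adjusted p = 0.27), and passed in the fit of only the 6 libraries (adjusted p = 0.0391). The vitamin D receptor Vdr was at 90.7, 87.7 and 81.1 TPM in DCA and 80.3, 73.9 and 76.2 TPM in CA, and its difference of 0.17 log2 units (-0.06 to 0.39, adjusted p = 0.296) was bounded within 0.5 log2 units, although it passed with median-ratio scaling (adjusted p = 0.0402). Gpbar1 was below the filter.

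Genes of vitamin D and calcium transport were higher in 3 of 5 tested. Cyp24a1, the enzyme that inactivates vitamin D and a standard target of Vdr, was at 5.83, 5.27 and 6.6 TPM in DCA and was listed at 0 in all 3 CA libraries and in 2 of 3 DMSO libraries, with 0.668 TPM in the other. It was detected in each DCA library and in none of CA, and the difference of 2.78 log2 units depends on the added 1 TPM. In CDCA it was at 5.59, 5.05 and 6.08 TPM. Cyp24a1, 1 of the 3 called, passed the filter only through the DCA and CDCA libraries, where it is high, so its test is not given. An exact 0 in such tables can also be a failed estimate, so no fold is given. S100g, the calcium carrier calbindin of the duodenum, was at 699.8, 687 and 657 TPM in DCA, 201, 124 and 188 TPM in CA and 149, 84.5 and 125 TPM in DMSO. Its difference was 2.02 log2 units (1.30 to 2.74, adjusted p = 0.00535), and the CA libraries overlapped the DMSO range. Atp2b1, the calcium pump of the basolateral membrane, was higher by 0.47 log2 units (0.21 to 0.73, adjusted p = 0.0227). The call of S100g held, and that of Atp2b1 was lost without CA 2, CA 3, DCA 1 or DCA 2 (adjusted p up to 0.0877).

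Cytochrome P450 enzymes oxidise drugs, steroids and fatty acids. Among 17 cytochrome P450 genes of families 1 to 4 with their reductase, 8 were called, all higher, with a median of 0.65 log2 units. Cyp3a25 was at 140.3, 143 and 104 TPM in DCA, 39.1, 26.5 and 37.1 TPM in CA and 31.8, 13.8 and 15.8 TPM in DMSO. It was higher by 1.89 log2 units (1.25 to 2.52, adjusted p = 0.00408), without overlap. Cyp3a11, a classical PXR target that hydroxylates bile acids, was at 218, 249.9 and 177 TPM in DCA, 106, 61.9 and 83.2 TPM in CA and 89.1, 38.3 and 61.9 TPM in DMSO. Cyp3a11 differed by 1.37 log2 units (0.55 to 2.19, adjusted p = 0.0338). Por, the reductase that supplies P450 enzymes with electrons, differed by 0.70 log2 units (0.40 to 1.00, adjusted p = 0.00825). Cyp2b10, a classical CAR target, was at 34.1, 35 and 28.5 TPM in DCA and 35.9, 22 and 22.4 TPM in CA, which overlap (0.30 log2 units, -0.29 to 0.89, adjusted p = 0.493). Those values neither call a difference nor bound it within 0.5 log2 units. Cyp3a25 and Por held and Cyp3a11 was lost without CA 2, CA 3, DCA 1, DCA 2 or DCA 3 (adjusted p up to 0.124), and the list's members called higher numbered 6, 3 and 4 without CA 1, 2 or 3 and 3, 3 and 4 without DCA 1, 2 or 3.

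Conjugating enzymes, which tag foreign compounds for export, were higher in DCA where they were called, and glutathione transferases of the mu class had large values. Of 28 tested conjugating enzymes, 8 were higher and none lower, with a median of 0.43 log2 units. Gstm3 was at 2009, 2014 and 1772 TPM in DCA, 919, 764 and 836 TPM in CA and 504, 331 and 334 TPM in DMSO. Gstm3 differed by 1.20 log2 units (0.88 to 1.53, adjusted p = 0.00164). Gstm1 differed by 0.98 log2 units (0.73 to 1.22, adjusted p = 0.000928) and Gstm4 by 1.24 log2 units (0.86 to 1.62, adjusted p = 0.00233), and all 3 held. Reads of such closely related genes may be shared between them by the quantification. The sulfotransferase Sult1b1 had a difference of similar size that did not pass, 1.09 log2 units (0.28 to 1.91, adjusted p = 0.0719), and passed in the fit of only the 6 libraries (adjusted p = 0.00247), without CDCA 3 (adjusted p = 0.0233) and without DMSO 1 (adjusted p = 0.0346). The list's members called higher numbered 6, 5 and 6 without CA 1, 2 or 3 and 5, 5 and 7 without DCA 1, 2 or 3, and 20 in a fit of only the 6 libraries, 15 without CDCA 3 and 13 without DMSO 1. Among 22 carboxylesterases, aldehyde and alcohol dehydrogenases and aldo-keto reductases, 8 were higher and 1 lower (median 0.52). Ces1f, a carboxylesterase, was at 132, 138 and 98.3 TPM in DCA, 44.8, 25.9 and 44.3 TPM in CA and 23, 8.76 and 7.42 TPM in DMSO. Ces1f differed by 1.68 log2 units (0.63 to 2.73, adjusted p = 0.0403). The aldehyde dehydrogenase Aldh1a7, outside that list, differed by 1.62 log2 units (0.82 to 2.42, adjusted p = 0.0168). Neither call held, Ces1f without any 1 of the 6 (adjusted p up to 0.141) and Aldh1a7 without CA 2, DCA 1 or DCA 2 (adjusted p up to 0.0715). Members of the carboxylesterase list called higher numbered 3, 1 and 1 without CA 1, 2 or 3 and 1, 1 and 2 without DCA 1, 2 or 3, and 14 in a fit of only the 6 libraries. The oxidative stress factor NRF2 controls antioxidant genes, of which 6 of 20 were higher and none lower (median 0.19), among them the glutathione synthesis subunit Gclm (0.57 log2 units, 0.31 to 0.82, adjusted p = 0.00955) and the sulfiredoxin Srxn1 (0.56 log2 units, 0.31 to 0.80, adjusted p = 0.009), both of which held. The NRF2 genes called higher numbered 4, 2 and 3 without CA 1, 2 or 3 and 2 without any 1 of DCA 1 to 3, and 11 under median-ratio scaling and 3 with plain limma moderation.

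Absorptive genes had positive median differences. Of 25 enterocyte and villus tip markers 4 were higher and 1 lower, against 5.79% and 8.94% of all genes. Their median was 0.54 log2 units, and 22 of the 25 differences were positive. Fabp1, the fatty acid carrier of the proximal enterocyte, was at 3969, 4129 and 2906 TPM in DCA, 2084, 1234 and 1564 TPM in CA and 1112, 667 and 1329 TPM in DMSO. Fabp1 differed by 1.19 log2 units (0.58 to 1.79, adjusted p = 0.0199). The lower member was the nucleoside carrier Slc28a2 (-0.47 log2 units, -0.78 to -0.16, adjusted p = 0.0443). The brush border hydrolases, which digest peptides, sugars and lipids at the cell surface, had the largest median of the absorptive lists, 0.75, with 7 of 16 higher and none lower. Ace, the peptidase angiotensin converting enzyme, was at 21, 23.4 and 16.9 TPM in DCA, 9.41, 5.01 and 6.69 TPM in CA and 4.78, 2.77 and 3.06 TPM in DMSO. It differed by 1.44 log2 units (0.87 to 2.01, adjusted p = 0.00595), and Naaladl1, another peptidase, by 0.99 log2 units (0.54 to 1.43, adjusted p = 0.00966). The glutathione hydrolase Ggt1 was at 173, 208 and 129.9 TPM in DCA, 60.4, 37.1 and 44 TPM in CA and 28.4, 14.8 and 12.9 TPM in DMSO. Ggt1 differed by 1.83 log2 units (1.03 to 2.64, adjusted p = 0.0106). Lactase (Lct) differed by 1.39 log2 units (0.60 to 2.18, adjusted p = 0.0263), whereas sucrase-isomaltase (Sis), at 728, 738 and 572 TPM in DCA and 464, 316 and 457 TPM in CA, did not pass (0.73 log2 units, -0.05 to 1.51, adjusted p = 0.19), nor did intestinal alkaline phosphatase (Alpi, 0.77 log2 units, 0.14 to 1.40, adjusted p = 0.0949). Both passed in the fit of only the 6 libraries (adjusted p = 0.0141 for Sis and adjusted p = 0.0342 for Alpi), and Alpi also without CDCA 3 (adjusted p = 0.0392) or CA 1 (adjusted p = 0.0475). Anpep, the aminopeptidase N, had a negative value that did not pass (-0.25 log2 units, -0.59 to 0.10, adjusted p = 0.323). In bulk RNA such as this, more or fewer cells of a type and more or less RNA per cell cannot be told apart. Ace and Naaladl1 held. The other calls were lost, Fabp1 without CA 2, CA 3, DCA 1 or DCA 2 (adjusted p up to 0.081), Slc28a2 without CA 1, CA 3, DCA 1, DCA 2 or DCA 3 (adjusted p up to 0.149), Ggt1 without DCA 2 (adjusted p up to 0.0506) and Lct without CA 2, CA 3, DCA 1, DCA 2 or DCA 3 (adjusted p up to 0.111). Hydrolases called higher numbered 7, 3 and 5 without CA 1, 2 or 3 and 3, 2 and 5 without DCA 1, 2 or 3, and 13 in a fit of only the 6 libraries and 12 without CDCA 3. Enterocyte markers called higher numbered 5, 1 and 1 without CA 1, 2 or 3 and 1, 1 and 2 without DCA 1, 2 or 3, and 7 under median-ratio scaling, 2 with plain limma moderation, 14 in a fit of only the 6 libraries and 9 without CDCA 3.

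Fat absorption genes and nutrient transporters had positive medians as well. Of 25 fat absorption and chylomicron genes, 8 were higher and none lower (median 0.45). They include Npc1l1, which takes up cholesterol (0.63 log2 units, 0.31 to 0.96, adjusted p = 0.0168), Scarb1, a lipoprotein receptor (0.72 log2 units, 0.40 to 1.03, adjusted p = 0.0091), and Dgat1, which makes triglyceride (0.57 log2 units, 0.28 to 0.85, adjusted p = 0.0166). Scarb1 held, and the calls of the other two were lost, Npc1l1 without CA 2, DCA 1 or DCA 2 (adjusted p up to 0.0779) and Dgat1 without CA 2, CA 3, DCA 1 or DCA 2 (adjusted p up to 0.0749). The list's members called higher numbered 9, 1 and 2 without CA 1, 2 or 3 and 1, 1 and 4 without DCA 1, 2 or 3, and 13 in a fit of only the 6 libraries. Among 16 peptide and amino acid transporters 4 were higher and 1 lower (median 0.15), against 5.79% and 8.94% of all genes. The peptide transporter Slc15a1 was at 6.41, 7.28 and 5.54 TPM in DCA and 3.38, 2.11 and 2.53 TPM in CA (1.02 log2 units, 0.43 to 1.61, adjusted p = 0.0279), and the lower member was Slc7a5, a large neutral amino acid exchanger (-0.41 log2 units, -0.60 to -0.21, adjusted p = 0.0134). Both were lost, Slc15a1 without CA 2, CA 3, DCA 1, DCA 2 or DCA 3 (adjusted p up to 0.11) and Slc7a5 without CA 2 or DCA 1 (adjusted p up to 0.0641). The difference of Slc3a2, the partner chain of Slc7a5, lay within narrow bounds around 0, at 0.02 log2 units (-0.13 to 0.16, adjusted p = 0.895). Of 14 sugar uptake and fructose genes 4 were higher and 1 lower (median 0.53), the largest called value being that of Pcx, pyruvate carboxylase, at 28, 30.5 and 24.4 TPM in DCA, 15.3, 7.98 and 10.5 TPM in CA and 3.73, 3.02 and 3.54 TPM in DMSO (1.26 log2 units, 0.81 to 1.71, adjusted p = 0.00451). The glucose carrier Slc5a1 did not pass (0.52 log2 units, 0.13 to 0.92, adjusted p = 0.0724), but did in the fit of only the 6 libraries (adjusted p = 0.0217), without CDCA 3 (adjusted p = 0.0366) and with median-ratio scaling (adjusted p = 0.0483). Pcx held. Amino acid transporters called higher numbered 4, 0 and 0 without CA 1, 2 or 3 and 0, 0 and 2 without DCA 1, 2 or 3. Sugar genes called higher numbered 4, 1 and 3 without CA 1, 2 or 3 and 1, 1 and 3 without DCA 1, 2 or 3, and 10 in a fit of only the 6 libraries and 8 without CDCA 3.

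Enzymes of lipid synthesis were higher in DCA in part. Scd1, the desaturase that makes monounsaturated fatty acids, was at 440.5, 460.0 and 395 TPM in DCA, 155, 142 and 137 TPM in CA and 88.3, 76.4 and 88.8 TPM in DMSO. It was higher by 1.57 log2 units (1.30 to 1.84, adjusted p = 6.12e-05), with little spread inside each group. Me1, malic enzyme, differed by 1.19 log2 units (0.88 to 1.50, adjusted p = 0.00117) and Acss2, which makes acetyl-CoA from acetate, by 0.83 log2 units (0.58 to 1.09, adjusted p = 0.00237). The core synthetic enzymes were not called, Fasn at 0.07 log2 units (-0.16 to 0.30, adjusted p = 0.712) and Acaca at -0.08 log2 units (-0.28 to 0.13, adjusted p = 0.638), both bounded within 0.5 log2 units. Of 15 fatty acid synthesis genes 5 were thus higher and 1 lower (median 0.17). Cholesterol synthesis and uptake had 13 of 24 genes higher and none lower (median 0.38). Insig1, a sterol feedback protein, was at 297, 299 and 259 TPM in DCA, 165, 151 and 158 TPM in CA and 122, 100.3 and 109 TPM in DMSO (0.84 log2 units, 0.65 to 1.03, adjusted p = 0.000428). Cyp51 (0.66 log2 units, 0.43 to 0.90, adjusted p = 0.00461), Mvd (0.60 log2 units, 0.41 to 0.80, adjusted p = 0.00296) and Hmgcs1 (0.54 log2 units, 0.34 to 0.74, adjusted p = 0.00506), all enzymes of the pathway, were higher too. Srebf2, the transcription factor that drives the pathway, had no call and a narrow interval (0.08 log2 units, -0.12 to 0.27, adjusted p = 0.6). Scd1, Me1, Acss2, Insig1, Cyp51, Mvd and Hmgcs1 all held. Cholesterol genes called higher numbered 12, 8 and 11 without CA 1, 2 or 3 and 8, 7 and 13 without DCA 1, 2 or 3.

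Genes of fatty acid oxidation and of glycolysis were higher in DCA where they were called. Fatty acid oxidation and ketogenesis had 13 of 24 genes higher and none lower (median 0.39). Pdk4, which restrains pyruvate oxidation, was at 2.67, 3.23 and 2.08 TPM in DCA, 0.939, 0.603 and 1.02 TPM in CA and 1.09, 0.731 and 0.775 TPM in DMSO, with CA overlapping the DMSO range. Pdk4, 1 of those 13, passed the filter only through the DCA libraries, where it is high, so its test is not given. Ppara, a known regulator of fatty acid oxidation genes, was at 9.61, 3.87 and 8.26 TPM in DCA and 5.93, 2.86 and 2.83 TPM in CA, overlapping and not called (0.74 log2 units, 0.12 to 1.36, adjusted p = 0.101), although it passed without CA 1 (adjusted p = 0.0413) or DCA 2 (adjusted p = 0.0335). Cpt1a, which admits fatty acids into mitochondria, had a difference of 0.19 log2 units (-0.07 to 0.46, adjusted p = 0.3). Glycolysis and hypoxia response genes were higher in 18 of 24 and lower in none, by small amounts (median 0.35). Car9, a carbonic anhydrase induced by hypoxia, was at 420.1, 409.6 and 389.7 TPM in DCA, 258, 267 and 267 TPM in CA and 169.7, 171 and 175 TPM in DMSO (0.62 log2 units, 0.44 to 0.79, adjusted p = 0.00188), and Gpi1, glucose phosphate isomerase, differed by 0.59 log2 units (0.42 to 0.76, adjusted p = 0.00211). Car9 and Gpi1 held. Oxidation genes called higher numbered 13, 6 and 10 without CA 1, 2 or 3 and 7, 7 and 10 without DCA 1, 2 or 3. Glycolysis genes called higher numbered 13, 8 and 11 without CA 1, 2 or 3 and 7, 7 and 14 without DCA 1, 2 or 3.

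Metal handling genes were higher in 9 of 16 and lower in none (median 0.40). Slc30a10, a manganese exporter, was at 48.1, 46.5 and 41.8 TPM in DCA, 15.7, 13.1 and 15.5 TPM in CA and 10, 5.37 and 6.8 TPM in DMSO (1.56 log2 units, 1.10 to 2.02, adjusted p = 0.00218). Slc11a2, the divalent metal importer of the duodenum, was at 1022, 1079 and 870.2 TPM in DCA, 554, 407 and 513 TPM in CA and 380.3, 194 and 229.6 TPM in DMSO (1.02 log2 units, 0.42 to 1.61, adjusted p = 0.0313). The metal-binding metallothionein Mt2 differed by 0.40 log2 units (0.22 to 0.59, adjusted p = 0.00999). Slc30a10 and Mt2 held and Slc11a2 was lost without any 1 of the 6 (adjusted p up to 0.118). The list's members called higher numbered 5, 2 and 4 without CA 1, 2 or 3 and 3, 2 and 3 without DCA 1, 2 or 3, and 5 with plain limma moderation.

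**Figure D3:**
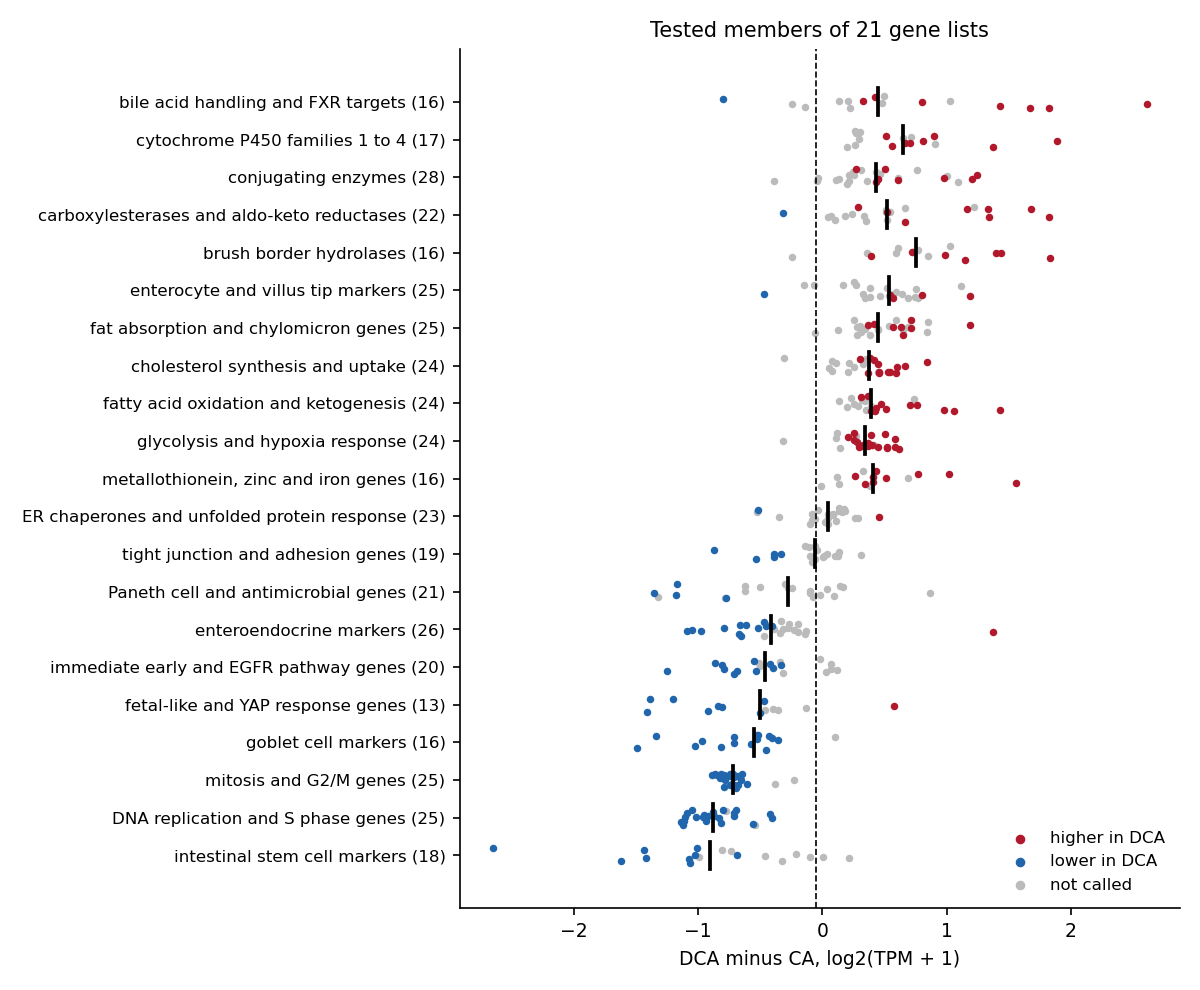
DCA minus CA on the log2(TPM + 1) scale (x axis) for the tested members of 21 gene lists (rows, number tested in brackets), with jitter on the y axis only. Red points were called higher and blue points lower in DCA, grey points were not called, bars mark each list's median and the dashed line the median of all genes (-0.05), and the medians run from 0.75 for the brush border hydrolases to -0.90 for the stem cell markers.

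Stem cell markers and Wnt targets, lists that share Axin2, Lgr5 and Ascl2 among others, were lower in DCA or not called, apart from Notum. Of 18 tested stem cell markers 9 were lower and none higher, with a median of -0.90 log2 units. Olfm4, which marks crypt base stem cells, was at 16.1, 14.2 and 17.7 TPM in DCA, 87.8, 159 and 83.8 TPM in CA and 161, 346 and 446 TPM in DMSO, with no overlap between any of the groups. Its difference was -2.65 log2 units (-3.81 to -1.50, adjusted p = 0.0118). Lgr5, the R-spondin receptor that defines these cells, was at 27.5, 28.2 and 31.9 TPM in DCA, 39.4, 56.9 and 48.2 TPM in CA and 52.3, 67.6 and 84.1 TPM in DMSO. Lgr5 differed by -0.69 log2 units (-1.13 to -0.25, adjusted p = 0.0408). Ascl2, the stem cell transcription factor, was at 0.648, 1.07 and 0.85 TPM in DCA and 4.66, 6.34 and 3.41 TPM in CA (-1.62 log2 units, -2.41 to -0.83, adjusted p = 0.0147). The stem cell marker Prom1 was at 87, 88.8 and 102 TPM in DCA and 87, 89.7 and 98.8 TPM in CA. Prom1 differed by 0.01 log2 units (-0.22 to 0.23, adjusted p = 0.969). Of 16 Wnt target and feedback genes 8 were lower and 1 higher (median -0.58). Axin2, a general Wnt target, was at 5.71, 5.47 and 5.92 TPM in DCA, 15.2, 22.4 and 14.7 TPM in CA and 18, 31.6 and 47.8 TPM in DMSO (-1.44 log2 units, -2.36 to -0.51, adjusted p = 0.0438), Ccnd1, a cyclin that starts the cell cycle, differed by -0.91 log2 units (-1.28 to -0.54, adjusted p = 0.00653), and Cd44 by -1.20 log2 units (-1.73 to -0.68, adjusted p = 0.009). The member called higher was Notum, a secreted enzyme that inactivates Wnt ligands, at 2.77, 2.61 and 1.48 TPM in DCA, 0.661, 0.585 and 0.492 TPM in CA and 1.54, 0.95 and 0.781 TPM in DMSO. Like Pdk4, Notum passed the filter only through the DCA libraries, and its test is not given. Ccnd1 and Cd44 held. The calls lost were Olfm4 without CA 2 or DCA 2 (adjusted p up to 0.0552), Lgr5 without CA 2, CA 3, DCA 1, DCA 2 or DCA 3 (adjusted p up to 0.154), Ascl2 without CA 2 or DCA 1 (adjusted p up to 0.0652) and Axin2 without any 1 of the 6 (adjusted p up to 0.149). Stem cell markers called lower numbered 8, 2 and 7 without CA 1, 2 or 3 and 4, 3 and 7 without DCA 1, 2 or 3, and 14 in a fit of only the 6 libraries. Wnt targets called lower numbered 6, 4 and 5 without CA 1, 2 or 3 and 4, 5 and 5 without DCA 1, 2 or 3.

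Genes of DNA replication, a measure of dividing cells, were lower in DCA in 23 of 25 and higher in none (median -0.88). Mcm2, a subunit of the replicative helicase, was at 10.2, 9.87 and 9.83 TPM in DCA, 23, 25.4 and 20.7 TPM in CA and 26.3, 33.7 and 41.8 TPM in DMSO. Mcm2 differed by -1.13 log2 units (-1.54 to -0.71, adjusted p = 0.00489). Rrm1, which makes deoxynucleotides, differed by -1.01 log2 units (-1.37 to -0.66, adjusted p = 0.00408). Mitosis genes were also lower in 23 of 25 (median -0.72). The proliferation marker Mki67 was at 16, 15.4 and 15.6 TPM in DCA, 24.1, 25 and 23.9 TPM in CA and 23.9, 26.7 and 34.6 TPM in DMSO, so that CA overlapped the DMSO range and DCA stood below both (-0.60 log2 units, -0.92 to -0.29, adjusted p = 0.018). Kif23, a kinesin of cytokinesis, differed by -0.86 log2 units (-1.03 to -0.69, adjusted p = 0.000199) and Cdc20, an activator of the anaphase ligase, by -0.71 log2 units (-0.89 to -0.53, adjusted p = 0.000991). Mcm2, Rrm1, Kif23 and Cdc20 held, and Mki67 was lost without CA 2, DCA 1 or DCA 2 (adjusted p up to 0.0669). Mitosis genes called lower numbered 23, 22 and 23 without CA 1, 2 or 3 and 22, 21 and 24 without DCA 1, 2 or 3. Replication genes called lower numbered 18, 13 and 18 without CA 1, 2 or 3 and 14, 15 and 18 without DCA 1, 2 or 3. The cell cycle inhibitor Cdkn1a was at 217, 225 and 215 TPM in DCA and 208, 184 and 204 TPM in CA (0.14 log2 units, -0.07 to 0.35, adjusted p = 0.344), bounded within 0.5 log2 units.

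Goblet cells secrete the mucus layer. Goblet cell markers were lower in 15 of 16 and higher in none (median -0.55). Zg16, a lectin of goblet cell mucus, was at 55.9, 57.5 and 57.4 TPM in DCA, 171, 131 and 137 TPM in CA and 86.9, 91 and 51.2 TPM in DMSO. The CA libraries stood above all DMSO libraries, and the DCA libraries lay within the DMSO range. The difference was -1.34 log2 units (-1.77 to -0.91, adjusted p = 0.00296). Clca1, another mucus protein, was at 2.48, 2.34 and 2.74 TPM in DCA, 10.9, 7.67 and 8.37 TPM in CA and 5.7, 7.72 and 5.55 TPM in DMSO. Clca1 differed by -1.49 log2 units (-1.84 to -1.14, adjusted p = 0.00062). The mucin Muc2, the main component of the layer, differed by -0.71 log2 units (standard error 0.13, adjusted p = 0.00601). The fate regulators Atoh1, which starts the secretory programme (-0.53 log2 units, -0.77 to -0.29, adjusted p = 0.00987), and Spdef, which completes it in goblet cells (-0.96 log2 units, -1.34 to -0.59, adjusted p = 0.00555), were lower, whereas the Notch effector Hes1 was not called (-0.14 log2 units, -0.32 to 0.03, adjusted p = 0.26) except without mitochondrial and rRNA rows (adjusted p = 0.0407). Zg16, Clca1, Muc2, Atoh1 and Spdef held, and goblet markers called lower numbered 11, 10 and 12 without CA 1, 2 or 3 and 10, 11 and 10 without DCA 1, 2 or 3.

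Markers and antimicrobial products of Paneth cells, which line the crypt base, were lower in 4 of 21 and higher in none (median -0.28). Over all genes 8.94% were lower and 5.79% higher. Lysozyme (Lyz1) was at 178, 172 and 164 TPM in DCA, 295, 292 and 296 TPM in CA and 337, 282 and 528 TPM in DMSO (-0.78 log2 units, -1.20 to -0.36, adjusted p = 0.0217), and the ribonuclease Ang4 differed by -1.35 log2 units (-1.92 to -0.78, adjusted p = 0.0084). The antibacterial lectin Reg3g was not called, with an interval open to either direction (0.14 log2 units, -0.29 to 0.56, adjusted p = 0.679). Ang4 held and Lyz1 was lost without any 1 of the 6 (adjusted p up to 0.0747). Members called lower numbered 3, 2 and 3 without CA 1, 2 or 3 and 2, 2 and 3 without DCA 1, 2 or 3, and 9 in a fit of only the 6 libraries. Of 10 tested tuft cell markers 1 was called, against 14.7% of all genes. The list median was -0.30 log2 units, and 2 of the 10 differences were positive. The called marker was Il17rb, a cytokine receptor, which was higher (0.79 log2 units, 0.40 to 1.18, adjusted p = 0.0144) and was lost without CA 3, DCA 1 or DCA 2 (adjusted p up to 0.0643). The lineage factor Pou2f3 had a negative value that did not pass (-0.50 log2 units, -0.90 to -0.10, adjusted p = 0.0884) except in the fit of only the 6 libraries (adjusted p = 0.0416) and without DMSO 1 (adjusted p = 0.0404).

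Enteroendocrine markers, among them the gut hormones, were lower in DCA where they were called, apart from Pyy. Of 26 tested markers 12 were lower and 1 higher (median -0.41). Cck, the hormone that empties the gallbladder, was at 573, 507 and 508 TPM in DCA, 1173, 1070.4 and 1139.6 TPM in CA and 1167, 924 and 1282 TPM in DMSO. The CA libraries overlapped DMSO, and DCA stood below both, with a difference from CA of -1.09 log2 units (-1.31 to -0.87, adjusted p = 0.000199). Gcg, which encodes the glucagon-like peptides, was at 144, 146 and 139 TPM in DCA, 337, 265 and 289 TPM in CA and 343, 276 and 317 TPM in DMSO (-1.05 log2 units, -1.28 to -0.81, adjusted p = 0.00042). The incretin Gip differed by -0.98 log2 units (-1.27 to -0.69, adjusted p = 0.00227). Pyy, a peptide of the distal gut, was the 1 member higher in DCA, at 4.43, 3.34 and 3.97 TPM in DCA, 0.777, 0.835 and 1.06 TPM in CA and 3, 1.55 and 1.96 TPM in DMSO (1.37 log2 units, 0.93 to 1.82, adjusted p = 0.00296). Its level was low throughout, and DMSO lay between the acids. The general granule gene chromogranin A (Chga) was at 134, 129 and 121 TPM in DCA and 154, 134 and 135 TPM in CA (-0.13 log2 units, -0.33 to 0.06, adjusted p = 0.345), bounded within 0.5 log2 units. The progenitor factor Neurog3 was lower (-0.66 log2 units, -1.03 to -0.30, adjusted p = 0.0232). Gastrin (Gast), the stomach acid hormone, which was not in that list, was at 0, 0.569 and 0.288 TPM in DCA, 5.79, 8.05 and 8.6 TPM in CA and 4.58, 4.23 and 7.49 TPM in DMSO (-2.73 log2 units, -3.30 to -2.16, adjusted p = 0.000233). Cck, Gcg, Gip, Pyy and Gast held and Neurog3 was lost without CA 1, CA 2, DCA 1 or DCA 2 (adjusted p up to 0.106). Markers called lower numbered 8, 7 and 9 without CA 1, 2 or 3 and 8, 6 and 9 without DCA 1, 2 or 3.

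**Figure D4:**
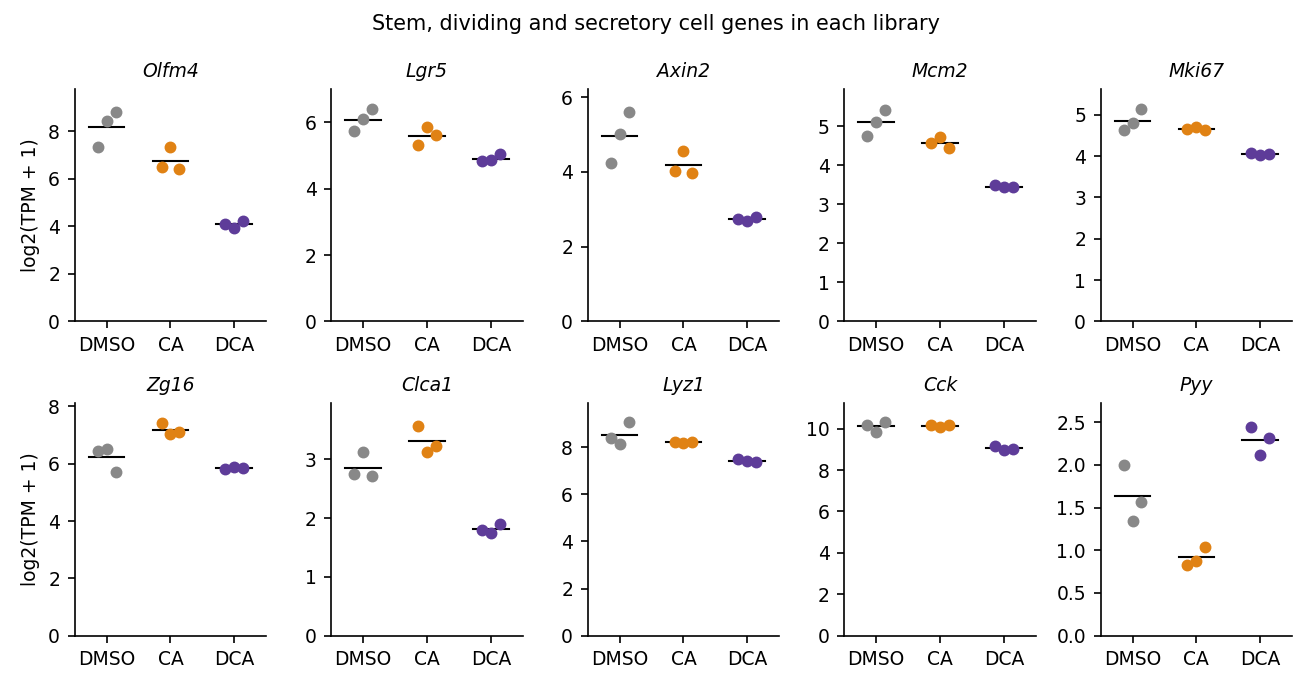
Levels of 10 stem, dividing and secretory cell genes in each DMSO, CA and DCA library (y axis, log2(TPM + 1), points are libraries and bars the mean of 3). The DCA libraries lie below the CA libraries in 9 panels and above them for Pyy, and for Zg16 and Clca1 the CA mean is above the DMSO mean.

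Immediate early genes are switched on rapidly by growth factors. In the list of these and of growth factor pathway genes 11 of 20 were lower and none higher (median -0.46). Egr1, an immediate early transcription factor, was at 13.6, 14.8 and 13.8 TPM in DCA, 21, 20.9 and 21.2 TPM in CA and 18, 18.2 and 17.8 TPM in DMSO. CA was above every DMSO library and DCA below every one, and the acids differed by -0.55 log2 units (-0.71 to -0.39, adjusted p = 0.00221). Areg, the epithelial growth factor amphiregulin, was at 134, 132 and 121 TPM in DCA, 195, 207 and 224 TPM in CA and 183, 131 and 172 TPM in DMSO (-0.69 log2 units, -0.94 to -0.44, adjusted p = 0.00489). Jun and Fos, which act as a pair, differed by -0.87 log2 units (-1.20 to -0.54, adjusted p = 0.00535) and -0.81 log2 units (-1.17 to -0.45, adjusted p = 0.00902). Dusp6, a feedback phosphatase, was not called, its difference of -0.02 log2 units (-0.29 to 0.25, adjusted p = 0.944) lying within 0.5 log2 units. The fetal-like and YAP response genes had 8 of 13 lower and 1 higher (median -0.50), with Ly6a, a marker of regenerating epithelium, at 12, 13.5 and 14.1 TPM in DCA, 36.8, 40.7 and 31.4 TPM in CA and 28.7, 43.8 and 58.3 TPM in DMSO (-1.39 log2 units, -1.92 to -0.85, adjusted p = 0.00551), and the annexin Anxa5 at -0.92 log2 units (-1.23 to -0.62, adjusted p = 0.00331). The higher member was Birc3, an inhibitor of apoptosis (0.57 log2 units, 0.29 to 0.86, adjusted p = 0.0145). Egr1, Areg, Jun, Fos, Ly6a and Anxa5 held and Birc3 was lost without CA 2, CA 3, DCA 1 or DCA 2 (adjusted p up to 0.0644). Immediate early and pathway genes called lower numbered 8, 7 and 7 without CA 1, 2 or 3 and 7, 8 and 7 without DCA 1, 2 or 3. Fetal-like and YAP genes called lower numbered 5, 3 and 6 without CA 1, 2 or 3 and 4, 3 and 4 without DCA 1, 2 or 3.

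Junction proteins seal the epithelium, and ion transporters move fluid across it. Of 19 tight junction and adhesion genes 5 were lower and none higher (median -0.06), against 8.94% and 5.79% of all genes. Cldn4, a sealing claudin, was at 35.9, 34.1 and 35.2 TPM in DCA, 66, 63.6 and 65.8 TPM in CA and 55, 70.2 and 90.8 TPM in DMSO (-0.87 log2 units, -1.24 to -0.51, adjusted p = 0.007), and Cldn2, a pore-forming claudin, differed by -0.53 log2 units (-0.81 to -0.26, adjusted p = 0.0181). For Epcam (-0.06 log2 units, -0.21 to 0.08, adjusted p = 0.558, and adjusted p = 0.0375 without mitochondrial and rRNA rows), the cadherin Cdh1 (-0.04 log2 units, -0.19 to 0.11, adjusted p = 0.722) and the scaffold Tjp1 (0.04 log2 units, -0.20 to 0.27, adjusted p = 0.851) the difference was bounded within 0.5 log2 units. Of 18 ion and fluid transport genes 3 were higher and 5 lower, against 5.79% and 8.94% of all genes. The list's median was 0.29 log2 units, and 11 of the 18 differences were positive. The chloride-bicarbonate exchanger Slc26a3 of absorptive cells was at 73.4, 70.5 and 64.3 TPM in DCA, 38.5, 31.1 and 41.5 TPM in CA and 25.8, 15.3 and 19.4 TPM in DMSO (0.90 log2 units, 0.44 to 1.35, adjusted p = 0.0177). Slc12a2, the chloride importer of secreting crypt cells, was at 28.7, 27.9 and 32.2 TPM in DCA, 69.9, 95 and 78.7 TPM in CA and 101, 118 and 161 TPM in DMSO (-1.42 log2 units, -1.92 to -0.91, adjusted p = 0.00474), and the potassium channel Kcnn4 differed by -1.38 log2 units (-1.90 to -0.85, adjusted p = 0.00535). Cldn4, Slc12a2 and Kcnn4 held. The calls lost were Cldn2 without CA 3, DCA 1 or DCA 2 (adjusted p up to 0.0656) and Slc26a3 without CA 2, DCA 1 or DCA 2 (adjusted p up to 0.0779). Junction genes called lower numbered 2 without any 1 of CA 1 to 3 and 1, 1 and 2 without DCA 1, 2 or 3. Ion transport genes called lower numbered 3, 3 and 4 without CA 1, 2 or 3 and 2, 3 and 4 without DCA 1, 2 or 3, and those called higher 1, 0 and 1 without CA 1, 2 or 3 and 0, 0 and 1 without DCA 1, 2 or 3, and 7 in a fit of only the 6 libraries, 7 without CDCA 3 and 5 without DMSO 1.

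Genes of the unfolded protein response were close between the acids. In 19 of 23 ER chaperone and unfolded protein response genes the 95% interval lay within 0.5 log2 units of 0, whereas 54.5% of all genes had such an interval. In that list 1 gene was higher and 1 lower. The chaperone Hspa5 (BiP) was at 321, 317 and 308 TPM in DCA, 269, 268 and 305 TPM in CA and 259.6, 204 and 221 TPM in DMSO. Hspa5 differed by 0.17 log2 units (-0.02 to 0.37, adjusted p = 0.222). Xbp1, a transcription factor of that response, differed by 0.26 log2 units (0.08 to 0.44, adjusted p = 0.0548), and passed in the fit of only the 6 libraries (adjusted p = 0.0117), without CDCA 3 (adjusted p = 0.0228) and without DMSO 1 (adjusted p = 0.0434). Among 20 integrated stress response genes 3 were higher and 3 lower, against 5.79% and 8.94% of all genes. For 15 of these 20 the interval lay within 0.5 log2 units of 0. Ddit3 (CHOP), a transcription factor tied to cell death, was at 62.7, 64.2 and 50.4 TPM in DCA, 38.6, 36.7 and 40.6 TPM in CA and 28.3, 25.9 and 26.2 TPM in DMSO (0.59 log2 units, 0.39 to 0.80, adjusted p = 0.00384). Atf4, which induces Ddit3, was bounded near 0 (0.05 log2 units, -0.09 to 0.19, adjusted p = 0.64). Gdf15, a secreted stress hormone, was lower (-0.49 log2 units, -0.67 to -0.31, adjusted p = 0.00489). Of 23 apoptosis and p53 target genes 1 was higher and 2 lower (median -0.04), about the 14.7% of all genes called in either direction. Interferon response and antigen presentation genes had 3 of 19 higher and none lower (median 0.06), also about that share. The class I genes H2-Q1 (1.12 log2 units, 0.69 to 1.56, adjusted p = 0.00543) and H2-Q2 (1.21 log2 units, 0.67 to 1.75, adjusted p = 0.00987) were among the 3, although these near-identical genes may share reads. Mucosal defence had 3 of 16 higher and 1 lower (median 0.18), against 14.7% of all genes called in either direction. Pigr, which carries IgA into the lumen, was at 1195, 1165 and 1052 TPM in DCA, 755, 616 and 721 TPM in CA and 559, 469 and 542 TPM in DMSO (0.71 log2 units, 0.43 to 0.99, adjusted p = 0.00589). Ddit3, Gdf15, H2-Q1, H2-Q2 and Pigr held. Integrated stress genes called higher numbered 3, 2 and 1 without CA 1, 2 or 3 and 1, 1 and 3 without DCA 1, 2 or 3, and those called lower 1 without any 1 of the 6 libraries, and 1 with plain limma moderation, 6 without mitochondrial and rRNA rows and 7 in a fit of only the 6 libraries.

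Of 20 transcription factors that set intestinal identity 1 was higher and 3 lower, against 14.7% of all genes called in either direction. Hnf4a was at 326, 325 and 315 TPM in DCA and 324, 288 and 299 TPM in CA (0.09 log2 units, -0.16 to 0.33, adjusted p = 0.658), and Cdx2 differed by -0.15 log2 units (-0.34 to 0.05, adjusted p = 0.286), both bounded within 0.5 log2 units. The 3 lower factors were the FOXA family: Foxa1 at 8.42, 8.14 and 8.18 TPM in DCA, 15.1, 17.5 and 14.4 TPM in CA and 15.5, 19.4 and 25.9 TPM in DMSO (-0.85 log2 units, -1.23 to -0.46, adjusted p = 0.0105), Foxa2 (-0.96 log2 units, -1.46 to -0.47, adjusted p = 0.0178) and Foxa3 (-0.68 log2 units, -1.04 to -0.32, adjusted p = 0.0198). Those 3 calls were lost, Foxa1 without CA 2 (adjusted p up to 0.051), Foxa2 without CA 1, CA 2, DCA 2 or DCA 3 (adjusted p up to 0.0729) and Foxa3 without CA 1, CA 2, DCA 1 or DCA 2 (adjusted p up to 0.0753). The higher member was the Wnt effector Tcf7l2 (0.33 log2 units, 0.13 to 0.53, adjusted p = 0.0347), a call lost without CA 1, CA 2, DCA 1 or DCA 2 (adjusted p up to 0.15).

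Genes outside the lists were also among the largest differences. Clca3b, a relative of the mucus protein Clca1, was at 14, 13.8 and 15.8 TPM in DCA, 66.2, 94.5 and 58.3 TPM in CA and 74.2, 156 and 177 TPM in DMSO. Clca3b differed by -2.22 log2 units (-3.17 to -1.28, adjusted p = 0.00966). Ifitm3, an interferon-induced membrane protein, was at 10.4, 9.3 and 9.31 TPM in DCA, 44.7, 68.9 and 37.3 TPM in CA and 46.5, 88.5 and 136 TPM in DMSO (-2.22 log2 units, -3.23 to -1.21, adjusted p = 0.0125). In both, the DCA libraries lay far below CA, and CA overlapped the DMSO range. Rgcc, a regulator of the cell cycle, differed by -1.90 log2 units (-2.65 to -1.16, adjusted p = 0.00609), Mboat1, a phospholipid acyltransferase, by -1.60 log2 units (-2.00 to -1.19, adjusted p = 0.00104), Sema7a, a membrane-bound semaphorin, by -1.52 log2 units (-2.14 to -0.90, adjusted p = 0.00685), and Ly6c1, a relative of Ly6a, by -1.66 log2 units (-2.38 to -0.93, adjusted p = 0.00902). Cenpu, a centromere protein, differed by -1.58 log2 units (-2.13 to -1.03, adjusted p = 0.00408). In the other direction Arg2, the mitochondrial arginase, was at 159.5, 162 and 123 TPM in DCA, 61.4, 39.3 and 51.4 TPM in CA and 38.4, 17.4 and 16.5 TPM in DMSO (1.54 log2 units, 0.71 to 2.36, adjusted p = 0.0231). Clca3b, Rgcc, Mboat1, Sema7a, Ly6c1 and Cenpu held, and the calls lost were Ifitm3 without CA 2 or DCA 2 (adjusted p up to 0.0552) and Arg2 without CA 2, CA 3, DCA 1 or DCA 2 (adjusted p up to 0.0932).

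**Figure D5:**
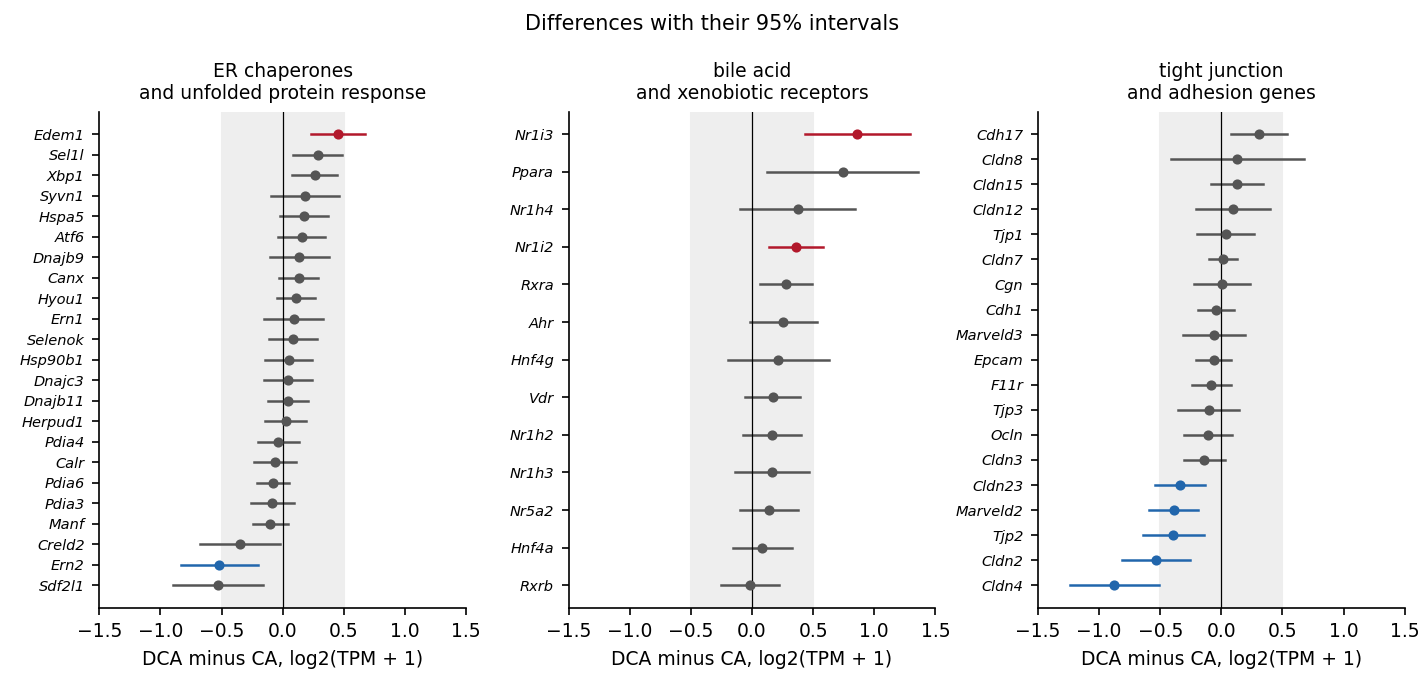
DCA minus CA on the log2(TPM + 1) scale with its 95% interval (x axis) for each tested member of 3 lists, with red for genes called higher in DCA, blue for genes called lower and dark grey for genes not called. The grey band spans 0.5 log2 units on either side of 0, and 19 of 23 ER genes lie wholly inside it, while the interval of Nr1i3 among the receptors crosses its edge and that of Cldn4 among the junction genes lies outside it.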

How the data were processed

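Poly(A) RNA of the organoids was sequenced in paired reads and quantified with Salmon 1.8.0 against GRCm39, per the submitters' processing notes. The deposited files give 1 value per gene and library. Their unit, TPM, was inferred from the values, and the authors' deposited TPM values keep no read depth. The TPM of all rows summed to 919913 to 921052 per CA library and 932615 to 936841 per DCA library.

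Rows that reached 1 TPM in 3 or more of the 12 libraries, 11952 of 32587, were tested on log2(TPM + 1) with limma 3.58.1 in R 4.3.3. One fit of the 4 group means over all 12 libraries with trend and robust moderation gave DCA minus CA, so the CDCA and DMSO libraries add to the spread. P-values were adjusted by the Benjamini-Hochberg method over all 11952 rows, with a threshold of 0.05. The alternatives were a replicate block, a fit of only the 6 CA and DCA libraries and plain limma moderation without trend or robust options. Others were removal of mitochondrial and rRNA rows, a smaller pseudocount (0.1), scaling by median ratios and a fit of all rows without the filter. Each CA and DCA library, CDCA library 3 and DMSO library 1 were also left out in turn. The other CDCA and DMSO libraries were not left out. The script was tested on simulated data with known differences. Those data had independent noise around the same mean in every group, so they cannot show how scaling or single libraries act here. Among the tested rows, 116 share their values with another row.

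The comparison, gene lists and named genes were chosen with earlier results of these data known. Named genes are first the 12 largest differences in each direction among called genes without overlap and above a minimum average level. Predicted genes, clone names, pseudogene symbols and rows that share values with another row were left out of those 12. The rule also names a panel, the members of each list with the smallest p and those with the narrowest bounds around 0. Some genes that this rule names are not reported here. Abcc3, Abcc4, Cyp2b10, Sult1b1, Sis, Slc5a1, Fasn, Notum, Reg3g, Pyy, Fos, Dusp6, Tjp1 and the identity markers Epcam, Cdx2, Pdx1 and Gata4 fall outside that rule and were chosen after their values were seen. Same-numbered DCA and CA libraries had correlations of their deviations from the group means of 0.08, -0.01 and -0.03. Those values show no pairing by number, but 3 libraries a group are too few to exclude it, and no label gives a pairing.

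Promoter windows are from RefSeq on GRCm38.p6, a different build from that of the deposited values.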

Additional observations from a re-analysis of the deposited data

How the results depend on the processing

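With any 1 CA or DCA library left out, 200 to 502 genes were higher and 372 to 605 lower (888 and 1359 without CDCA library 3, 836 and 1360 without DMSO library 1), 38 to 84 and 65 to 102 of them by 1 log2 unit or more, and 5447 to 5803 were bounded within 0.5 log2 units. With no filter on low values 34 genes were higher and 42 lower, 10 and 8 of them by 1 log2 unit or more, and 25454 were bounded. The fit of only the 6 DCA and CA libraries gave 1284 higher and 2117 lower. Median-ratio scaling gave 1236 higher, removal of mitochondrial and rRNA rows 2059 lower, and a pseudocount of 0.1 gave 218 lower by 1 log2 unit or more. The cause of these shifts was not tested. A replicate block gave 537 higher and 733 lower, 63 and 83 of them by 1 log2 unit or more, and 6262 bounded. It ended the calls of Abcc4, Axin2, Ces1f, Lgr5, Nr1i2, Slc28a2 and Tcf7l2, at adjusted p = 0.063, 0.0689, 0.0586, 0.0637, 0.0526, 0.0529 and 0.065, and no other call of a named gene. As no pairing by number was seen or labelled, this is not read as a paired result. Of 105 called genes named in the text, 66 held without any 1 CA or DCA library, 105 passed under median-ratio scaling, 105 with a pseudocount of 0.1 and 18 without the filter. Those 105 include Cyp24a1, Pdk4 and Notum, whose tests are not given, and the 66 include Cyp24a1 and Pdk4. With plain limma moderation Lgr5 was lost (adjusted p = 0.0524), and without mitochondrial and rRNA rows Abcc3 (adjusted p = 0.0507).

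Genes that were not called and lay near 0 changed sign. With median-ratio scaling the log2 difference of Cdh1 was 0.015 and that of Dusp6 0.036. Without mitochondrial and rRNA rows it was -0.012 for Atf4, -0.054 for Prom1, -0.045 for Slc3a2 and -0.022 for Tjp1. With a library left out the log2 difference ranged from -0.11 to 0.11 for Dusp6, -0.0089 to 0.13 for Fasn, -0.061 to 0.061 for Prom1 and -0.0059 to 0.034 for Slc3a2. For the share of TPM in mitochondrially encoded genes DCA minus CA was between -1.83 and -2.61 percentage points. TPM keeps no read depth, so no limit from depth can be given.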

Other observations

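Retinol and carotenoid genes, which take up and store vitamin A, were higher in DCA in 5 of 11 tested and lower in none, with a median difference of 0.57 log2 units against -0.05 over all genes. Retsat, the retinol saturase, was at 111, 118 and 91.3 TPM in DCA, 66.7, 54.9 and 59.4 TPM in CA and 54.9, 38.4 and 40.9 TPM in DMSO, without overlap between the acids (0.81 log2 units, 0.45 to 1.16, adjusted p = 0.00892). Lrat, which esterifies retinol for storage, was at 2.74, 2.65 and 2.52 TPM in DCA, 1.74, 1.19 and 1.51 TPM in CA and 1.4, 1.14 and 1.1 TPM in DMSO (0.56 log2 units, 0.26 to 0.85, adjusted p = 0.0198). Scarb1 and Dgat1 of this list are also in the fat absorption list, and the row of Aldh1a1, which makes retinoic acid, has the same values as another row. Retsat kept its call with any 1 CA or DCA library left out, and that of Lrat was lost without CA 2, CA 3, DCA 1 or DCA 2 (adjusted p up to 0.0932). Retinol genes called higher numbered 4, 2 and 2 without CA 1, 2 or 3 and 2, 2 and 4 without DCA 1, 2 or 3, and 8 in a fit of only the 6 libraries.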
